A study of Homo sapiens with 6 samples.

Results

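The kinetochore is the protein machine that ties each chromosome to the spindle, and 42 genes of the centromere, the kinetochore and the spindle checkpoint were followed in RNA-seq of MDA-MB-231 cells. They were listed by symbol for their known roles, with earlier results of these data known, and 41 of them were found among the 23228 genes listed in the count tables. The remaining gene, CENPC, is listed under its older symbol CENPC1 and is given apart. MDA-MB-231 is an established human triple negative breast cancer (TNBC) cell line. Cells carrying a non-targeted control shRNA (3 replicates) were compared with PELP1-KD cells, which carry an shRNA against PELP1 (3 replicates). PELP1 is a coregulator of nuclear receptors and a part of the ribosome assembly machinery. Both shRNAs were delivered by lentivirus, and per the labels both stable lines were made with puromycin selection, so the controls share virus and selection with the knockdown. A single shRNA sequence was used for PELP1, and nothing states that the replicates were selected separately, so p-values measure the spread between these samples.

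Centromeres are marked by nucleosomes that hold the histone variant CENPA, on which the constitutive centromere-associated network (CCAN) sits throughout the cell cycle. In mitosis the CCAN recruits the MIS12 and NDC80 complexes, and the NDC80 and SKA complexes grip microtubules. Unattached kinetochores recruit TTK, BUB and MAD proteins, and these hold back CDC20, the activator of the anaphase-promoting complex (APC/C), until every chromosome is attached. The chromosomal passenger complex corrects faulty attachments, and shugoshins guard the cohesion between sister chromatids. Transcripts of many of these genes peak in G2 and mitosis, and a promoter element called the cell cycle genes homology region (CHR), bound by the MuvB complex with MYBL2 and FOXM1, is known for this timing.

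Reads counted on genes were between 17304864 and 23132102 per library, and each of the 41 genes had enough counts to be tested. Values are given as CPM, the reads of a gene scaled to the size of the library. PELP1 was 57.2, 56.0 and 60.2 CPM in control and 28.6, 29.8 and 30.2 CPM in PELP1-KD cells. Its log2 fold change (log2FC) was -0.97 with a standard error (SE) of 0.055, and the quasi-likelihood test of edgeR gave an adjusted p-value of 1.48e-11. An exact two-sided permutation test of PELP1 alone gave p = 0.1, the smallest that 3 against 3 samples allow. Of the markers of the line, VIM was 2220 CPM and CD44 was 1208 CPM in control cells on average. ESR1, PGR and CDH1, expected to be low, were at most 0.225 CPM in any library. ERBB2 and EPCAM, also expected to be low, averaged 113 and 9.46 CPM in control and 118 and 9.56 CPM in PELP1-KD cells. PTPRC, a leukocyte marker, had no read in any library, and PECAM1, of endothelium, was at most 0.338 CPM. COL1A1 and PDGFRB, which mark fibroblasts and pericytes, rose from 5.84 to 18.1 CPM and from 15.7 to 45.6 CPM, and their part in the results was not tested.

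Short stretches of promoter are shown for 8 of the genes, because the CHR stands at the transcript start of many of them and the genes that carry it did not all move alike. Each runs from 75 bases before to 25 bases after the start in RefSeq on GRCh38.p14, read 5' to 3' along the gene. Capitals mark matches to the CHR (TTTGAA or TTCGAA, or TTCAAA where it lies on the other strand) and the CCAAT box (CCAAT or ATTGG). The first 4 genes were lower in PELP1-KD cells, NDC80 and PLK1 did not pass the test, and SPC24 and NSL1 were higher. The 8 genes were picked by hand with the results known, and they do not represent all lower genes. Of the 13 lower genes with a promoter in RefSeq, 7 had a CHR match in this stretch and 6 had none.
CDC20 (chr1:43358906-43359005, plus strand): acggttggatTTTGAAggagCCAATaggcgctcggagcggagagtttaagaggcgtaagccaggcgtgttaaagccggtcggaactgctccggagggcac
NUF2 (chr1:163321879-163321978, plus strand): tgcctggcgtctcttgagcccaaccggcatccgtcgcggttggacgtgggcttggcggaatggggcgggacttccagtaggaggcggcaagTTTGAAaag
SKA3 (chr13:21176528-21176627, minus strand): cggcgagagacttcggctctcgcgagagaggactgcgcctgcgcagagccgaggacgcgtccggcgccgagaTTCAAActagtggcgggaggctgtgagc
BUB1 (chr2:110678039-110678138, minus strand): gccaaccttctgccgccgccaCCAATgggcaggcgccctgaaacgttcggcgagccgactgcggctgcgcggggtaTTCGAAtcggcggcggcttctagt
NDC80 (chr18:2571482-2571581, plus strand): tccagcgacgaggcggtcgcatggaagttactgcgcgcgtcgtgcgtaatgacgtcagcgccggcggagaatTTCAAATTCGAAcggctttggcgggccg
PLK1 (chr16:23678814-23678913, plus strand): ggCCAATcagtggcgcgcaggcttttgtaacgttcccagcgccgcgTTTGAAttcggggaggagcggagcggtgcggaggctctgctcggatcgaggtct
SPC24 (chr19:11155758-11155857, minus strand): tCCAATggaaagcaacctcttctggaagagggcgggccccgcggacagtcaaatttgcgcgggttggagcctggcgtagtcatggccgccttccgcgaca
NSL1 (chr1:212791753-212791852, minus strand): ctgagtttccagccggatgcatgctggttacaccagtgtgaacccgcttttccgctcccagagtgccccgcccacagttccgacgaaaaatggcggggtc
The CHR stood 65 bases before the start in CDC20, at base 17 of the transcript in NUF2, 3 bases before the start in SKA3 and at base 2 in BUB1. NDC80 carried 2 matches side by side across its start, and PLK1 carried a match 29 bases before it. Neither SPC24 nor NSL1 had a CHR match in the stretch shown.

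At an adjusted p-value below 0.05, PELP1-KD cells had less transcript of 16 of the 41 genes (39%) and more of 5 (12.2%), and 20 did not pass. Among the 12796 tested genes, 24.2% were lower and 22.7% higher. Sizes were small, between a log2FC of -0.44 in BUB3 and 0.43 in SPC24, with a median of -0.07 against 0.0014 for all tested genes. The ranges of control and PELP1-KD replicates were apart in 25 of the 41 genes (61%), near the 55% among all tested genes. In a culture of mixed cell cycle stages, fewer cells in mitosis and less RNA per mitotic cell cannot be told apart. With libraries scaled by their totals alone, 12 genes were lower and 7 higher, so that the lower ones made up 63.2% of the calls instead of 76.2%, while among all genes this share went from 51.7% to 38.8%. Of all tested genes, 18.9% were lower and 29.8% higher with this scaling. With offsets for GC content and length in each library, 20 genes were lower and 7 higher, and 17 of the original 21 calls were kept. The lower ones made up 74.1% of these calls. Among all genes tested with the offsets, 28.9% were lower and 22.8% higher, so that the lower ones made up 55.9% of the calls. Calls in 14 genes held their direction under all 15 alternative analyses: CENPI, CENPN, NUF2, SKA1, SKA3, CENPE, CENPF, BUB1, BUB3, TTK, CDC20 and CDCA8 were lower, and SPC24 and NSL1 were higher.

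**Figure D1:**
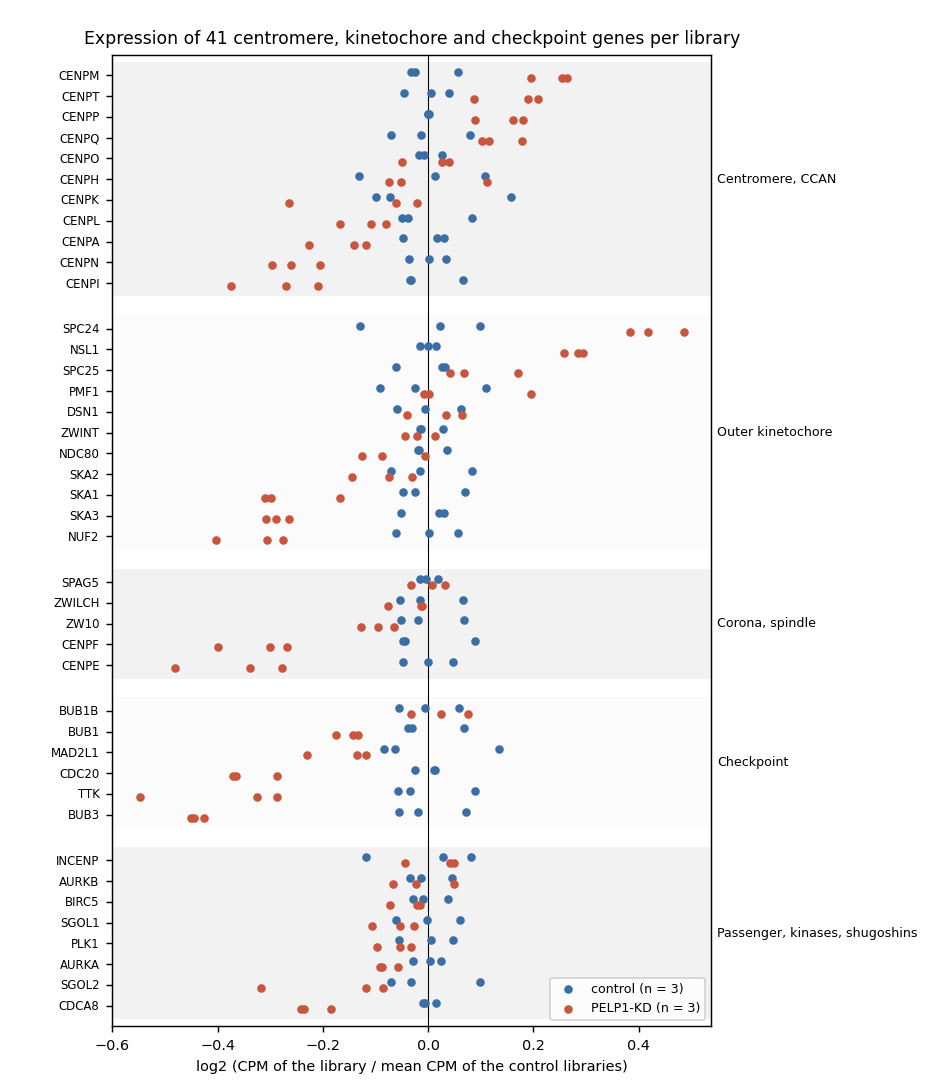
Each point is the expression of a gene in a library, as log2 of its CPM over the mean CPM of the 3 control replicates, for 41 genes sorted by role (blue, control; red, PELP1-KD). The 3 PELP1-KD points of BUB3, CDC20, SKA3 and NUF2 lie to the left of all control points, those of SPC24 and NSL1 lie to the right, and those of SPAG5 and AURKB are mixed with the controls.

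Of the 5 roles of the 41 genes, the spindle checkpoint with its target CDC20 had the largest share of lower genes. There, 5 of 6 were lower (83.3%) and none was higher. Among all tested genes, 24.2% were lower and 22.7% higher. The median log2FC of the checkpoint genes was -0.25. With library totals 4 were lower and none was higher, where 18.9% and 29.8% of all tested genes were, and the median was -0.20. With GC and length offsets 4 were lower and 1, BUB1B, was higher, where 28.9% and 22.8% of all tested genes were. The median was also -0.20. BUB3, the adaptor that brings BUB1 and BUB1B to kinetochores, was 436, 399 and 410 CPM in control and 305, 304 and 309 CPM in PELP1-KD cells. The groups did not overlap, and this gene had the lowest p-value of the 41, with a log2FC of -0.44 (SE 0.033, adjusted p-value 1.16e-09). CDC20, through which the checkpoint acts on the APC/C, was 269, 277 and 276 CPM in control and 212, 225 and 213 CPM in PELP1-KD cells. All PELP1-KD values were below all control values, with a log2FC of -0.34 (SE 0.034, adjusted p-value 6e-08). TTK, the kinase that starts checkpoint signaling, was 139, 126 and 128 CPM in control and 107, 89.4 and 104.3 CPM in PELP1-KD cells, again apart (log2FC -0.38, SE 0.056, adjusted p-value 1.11e-05). BUB1, a kinase that marks centromeric chromatin, was 455, 425 and 423 CPM in control and 396, 385 and 393 CPM in PELP1-KD cells (log2FC -0.15, adjusted p-value 6.92e-04). Its values were apart in the groups, although the change was less than that of its adaptor BUB3. MAD2L1, which binds and restrains CDC20, was 210.1, 181 and 183 CPM in control and 174, 163 and 176 CPM in PELP1-KD cells. Control replicate 1 stood above the other controls, and the log2FC was -0.16 (adjusted p-value 0.0107). It was not called with library totals (adjusted p-value 0.0652) or with GC and length offsets (adjusted p-value 0.0996). BUB1B, which forms the inhibitory complex together with BUB3, MAD2L1 and CDC20, was 171, 164 and 158 CPM in control and 167, 161 and 173.3 CPM in PELP1-KD cells, which overlapped, and did not pass the test (log2FC 0.02, SE 0.040). Checkpoint genes outside the 41 moved both ways. MAD1L1, MAD2L1BP and TRIP13 were higher, with a log2FC of 0.16 (adjusted p-value 0.014), 0.18 (0.00534) and 0.15 (0.00148). SPDL1, listed as CCDC99, was lower (log2FC -0.37, adjusted p-value 1.55e-07), and KNTC1 did not pass (log2FC -0.07, adjusted p-value 0.18).

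Ratios of read counts within a library need no library scaling and were taken for 10 pairs of genes. The log2 ratio of BUB1B to BUB3 reads was -1.35, -1.28 and -1.37 in control and -0.87, -0.92 and -0.83 in PELP1-KD cells. These ranges are far apart compared with the SD between replicates of 0.0445 and 0.0425. The log2 ratio of SPC24 to NUF2 reads was -3.18, -2.97 and -2.83 in control and -2.27, -2.10 and -2.33 in PELP1-KD cells, again without overlap. MAD2L1 to CDC20 and SGOL1 to SGOL2 were the only pairs in which the groups overlapped. MAD2L1 to CDC20 was -0.36, -0.62 and -0.59 in control and -0.28, -0.46 and -0.27 in PELP1-KD cells. SGOL1 to SGOL2 was -1.77, -1.76 and -1.66 against -1.67, -1.52 and -1.66. In all remaining pairs of the 10 the groups were apart. The pairs were chosen after their values were seen, so the ratios are given as a description.

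Among genes of the fibrous corona and the spindle, 2 of 5 were lower (40%) and none was higher. The shares among all tested genes were 24.2% and 22.7%. CENPE, a kinesin motor that carries chromosomes to the spindle equator, was 170, 164 and 159 CPM in control and 136, 118 and 130 CPM in PELP1-KD cells. CENPF, a large coiled-coil protein of the corona, was 413, 376 and 377 CPM in control and 316, 295 and 323 CPM in PELP1-KD cells. In both genes the groups did not overlap, with a log2FC of -0.36 (SE 0.046, adjusted p-value 1.69e-06) in CENPE and -0.32 (SE 0.039, adjusted p-value 1.17e-06) in CENPF. CENPE has a GC content of 35.3% and CENPF of 40.8%, and with GC and length offsets the log2FC was -0.17 in CENPE and -0.21 in CENPF, still past the test. ZW10, a subunit of the complex that recruits dynein and MAD proteins, was 109, 99.8 and 102 CPM in control and 98.9, 96.8 and 94.7 CPM in PELP1-KD cells, narrowly apart but not past the test (log2FC -0.10, adjusted p-value 0.0776). ZWILCH of the same complex had a log2FC of -0.03 (adjusted p-value 0.534). With GC and length offsets ZW10 was lower (adjusted p-value 0.0467) and ZWILCH was higher (adjusted p-value 0.0167). SPAG5, also called astrin, which stabilizes attachments, had equal means of 282 CPM in both groups and a log2FC of 0.0025 (SE 0.032).

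In the outer kinetochore, 3 of 11 genes were lower (27.3%) and 2 higher (18.2%), shares near those of all tested genes (24.2% and 22.7%), with a median log2FC of -0.02 (0.03 with library totals, 3 lower and 3 higher). With library totals, 18.9% of all tested genes were lower and 29.8% higher. The 4 subunits of the NDC80 complex, the main microtubule coupler, did not move together. NUF2 was 163, 157 and 150 CPM in control and 126, 118 and 129 CPM in PELP1-KD cells. SPC24 was 18.0, 19.97 and 21.1 CPM in control and 26.3, 27.6 and 25.7 CPM in PELP1-KD cells. NUF2 was thus lower in every PELP1-KD replicate (log2FC -0.33, SE 0.042, adjusted p-value 2.41e-06), and SPC24 was higher in each of them (log2FC 0.43, SE 0.072, adjusted p-value 5.57e-05). NDC80, the partner of NUF2, was 167, 161 and 161 CPM in control and 153, 149.5 and 162 CPM in PELP1-KD cells, which overlapped (log2FC -0.07, adjusted p-value 0.139). SPC25, the partner of SPC24, was 59.9, 56.3 and 60.1 CPM in control and 61.6, 60.5 and 66.2 CPM in PELP1-KD cells. Its values did not overlap but did not pass the test (log2FC 0.10, adjusted p-value 0.125). SPC25 was called higher with library totals (log2FC 0.15, adjusted p-value 0.0223) and with GC and length offsets (log2FC 0.11, adjusted p-value 0.0269).

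Of the SKA complex, which tracks microtubule ends, SKA3 and SKA1 fell and SKA2 did not pass. SKA3 was 147, 146 and 139 CPM in control and 118, 116 and 120 CPM in PELP1-KD cells, a log2FC of -0.29 (SE 0.039, adjusted p-value 3.73e-06) with groups apart. SKA1, at a lower level of 28.1 ± 1.22 CPM (SD, n = 3) in control cells, had a log2FC of -0.26 (adjusted p-value 0.00346), and SKA2 had -0.08 (adjusted p-value 0.105). Of the MIS12 complex, which links the CCAN to NDC80, NSL1 was 45.7, 45.2 and 46.2 CPM in control and 55.7, 54.7 and 56.0 CPM in PELP1-KD cells. NSL1 was higher in every PELP1-KD replicate, with a log2FC of 0.28 (SE 0.049, adjusted p-value 9.2e-05). DSN1 and PMF1 of the same complex had a log2FC of 0.02 and 0.07 and did not pass. ZWINT, which joins the checkpoint complex to the outer kinetochore, was 244, 236 and 237 CPM in control and 232, 236 and 241 CPM in PELP1-KD cells, which overlapped, and did not pass (adjusted p-value 0.703). With GC and length offsets ZWINT was lower (log2FC -0.09, adjusted p-value 0.00579).

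**Figure D2:**
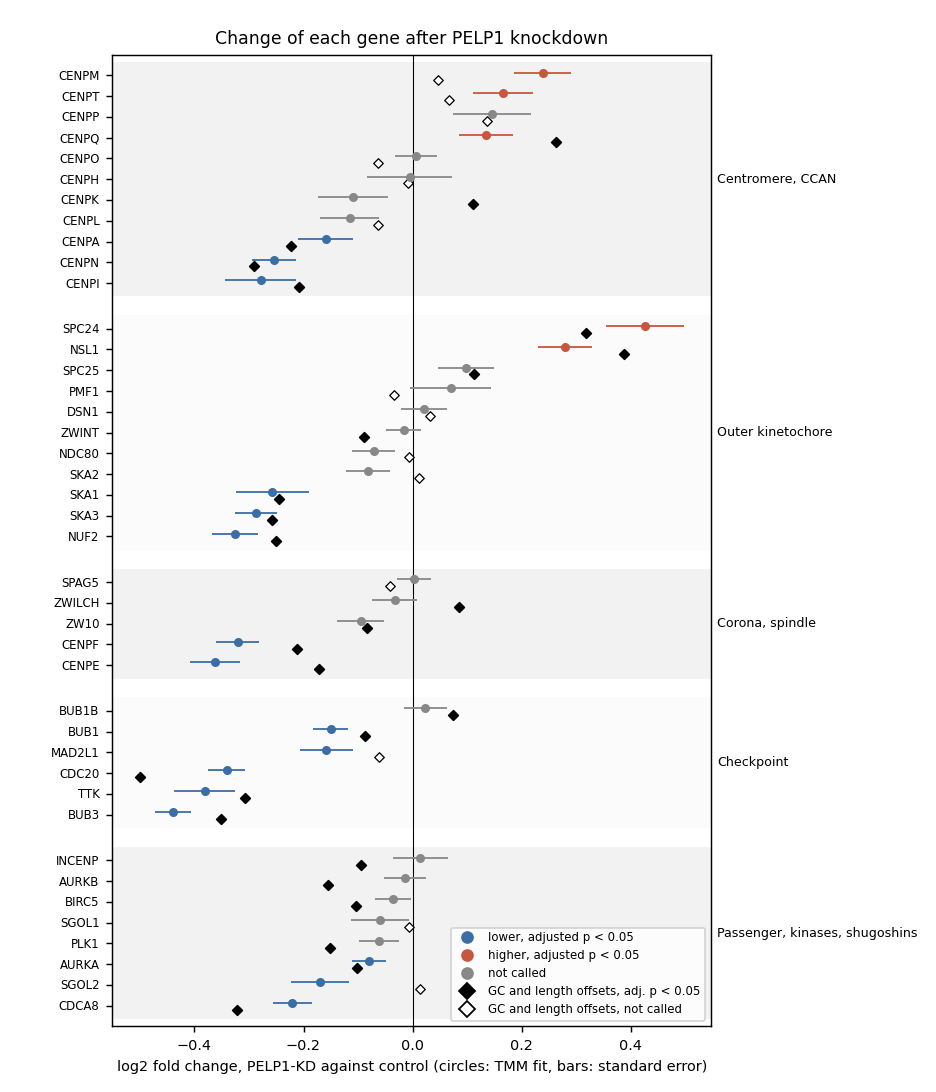
The horizontal axis is the log2FC of each of the 41 genes in PELP1-KD cells against control cells; circles with bars are the TMM-scaled values with their standard error, and diamonds are the values after offsets for GC content and length (filled where the adjusted p-value is below 0.05). BUB3 at -0.44 and SPC24 at 0.43 are the ends of the range of the circles. The filled diamonds of CENPK, ZWILCH and INCENP and the open diamonds of SGOL2, SKA2, CENPO, PMF1 and SPAG5 stand on the other side of 0 from their circles.

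In the inner kinetochore, 3 of 11 genes were lower and 3 were higher (27.3% each), also near the shares of all tested genes, and the median log2FC was -0.0051 (0.04 with library totals, 2 lower and 4 higher). All tested genes were 18.9% lower and 29.8% higher by count with library totals. CENPN, which reads the CENPA nucleosome, was 136, 133 and 129 CPM in control and 115, 108 and 111 CPM in PELP1-KD cells. CENPI, a subunit that stabilizes the CCAN, was 31.8, 29.7 and 29.7 CPM in control and 23.4, 25.2 and 26.3 CPM in PELP1-KD cells. Both were below all controls in each PELP1-KD replicate, with a log2FC of -0.25 (SE 0.040, adjusted p-value 2.57e-05) in CENPN and -0.28 (SE 0.065, adjusted p-value 0.00149) in CENPI. CENPA itself was 61.6, 58.9 and 62.1 CPM in control and 55.2, 52.01 and 56.1 CPM in PELP1-KD cells, also apart (log2FC -0.16, adjusted p-value 0.0131), and was not called with library totals (adjusted p-value 0.0752).

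The 3 higher genes of the inner kinetochore were CENPM, CENPT and CENPQ, all subunits of the CCAN. CENPM was 42.0, 41.8 and 44.5 CPM in control and 51.03, 51.4 and 49.0 CPM in PELP1-KD cells (log2FC 0.24, SE 0.053, adjusted p-value 8.74e-04). CENPT, which binds the NDC80 complex directly, was 39.8, 38.4 and 40.8 CPM in control and 42.2, 45.3 and 45.9 CPM in PELP1-KD cells (log2FC 0.17, adjusted p-value 0.0191). CENPQ was 67.9, 61.1 and 63.6 CPM in control and 72.7, 68.9 and 69.5 CPM in PELP1-KD cells (log2FC 0.13, adjusted p-value 0.0322). The groups stood apart in all 3 genes, but with GC and length offsets the log2FC was 0.05 in CENPM (adjusted p-value 0.428) and 0.07 in CENPT (adjusted p-value 0.278), both no longer called. CENPQ had 0.26 with the offsets, and under DESeq2 CENPQ and CENPT were not called. CENPH, CENPK, CENPL, CENPO and CENPP, also CCAN subunits, did not pass, with a log2FC between -0.12 in CENPL and 0.15 in CENPP, which was called higher with library totals (adjusted p-value 0.0283). CENPK was 108, 92.4 and 90.7 CPM in control and 95.7, 80.9 and 93.1 CPM in PELP1-KD cells, overlapping, with a GC content of 32.9%. With GC and length offsets CENPK was higher, with a log2FC of 0.11 (adjusted p-value 0.0119). CENPC1 was 22.6, 20.3 and 21.4 CPM in control and 18.8, 19.0 and 19.7 CPM in PELP1-KD cells, apart but with an adjusted p-value of 0.0806.

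Among the chromosomal passenger complex, the mitotic kinases and the shugoshins, 3 of 8 genes were lower (37.5%) and none was higher. The shares among all tested genes were 24.2% and 22.7%. With library totals 1 of the 8 was lower (18.9% of all tested genes), and with GC and length offsets 6 were (28.9% of all tested genes). CDCA8, also called borealin, which targets the passenger complex to the centromere, was 175, 174 and 177 CPM in control and 149, 154 and 148 CPM in PELP1-KD cells. Its log2FC of -0.22 (SE 0.035, adjusted p-value 3.39e-05) came with groups that did not overlap. The other subunits did not pass: AURKB, the kinase, was 160.4, 169 and 163 CPM in control and 162, 169.8 and 157 CPM in PELP1-KD cells (log2FC -0.01), BIRC5, also called survivin, had -0.04, and INCENP, the scaffold, had 0.01. With GC and length offsets these 3 were lower as well, with -0.16 in AURKB (adjusted p-value 5.36e-05), -0.10 in BIRC5 (adjusted p-value 0.00107) and -0.10 in INCENP (adjusted p-value 0.042).

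SGOL2, a shugoshin, was 172, 157 and 153 CPM in control and 152, 129 and 148 CPM in PELP1-KD cells, with a log2FC of -0.17 (adjusted p-value 0.0115). This call was lost with library totals (adjusted p-value 0.0622) and its sign turned with GC and length offsets, at 0.01 (adjusted p-value 0.719). SGOL1, its paralog, had a log2FC of -0.06 and did not pass. AURKA, the kinase of spindle poles, was 316, 323 and 328 CPM in control and 310, 303 and 302 CPM in PELP1-KD cells. It was the smallest of the calls, with a log2FC of -0.08 (SE 0.031, adjusted p-value 0.0375), and was not called with library totals (adjusted p-value 0.428). PLK1, the kinase that drives several steps of mitosis, was 179.5, 187 and 193 CPM in control and 179.7, 182 and 174 CPM in PELP1-KD cells. It did not pass (log2FC -0.06, adjusted p-value 0.179) but was lower with GC and length offsets (log2FC -0.15, adjusted p-value 3.5e-05).

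Levels of different genes were compared per length, as CPM over the merged exon length in kilobases (RPKM). CDC20 had the highest level, on average 135 RPKM (SD 2.00, n = 3) in control and 106.2 RPKM (SD 3.47, n = 3) in PELP1-KD cells. AURKA followed with 110.1 and 104.2 RPKM, and ZWINT with 101 and 99.3 RPKM. CENPP had the lowest level, 1.82 RPKM in control cells. Within the NDC80 complex, NUF2 and NDC80 were at 46.5 and 45.3 RPKM in control cells, SPC25 at 31.9 RPKM and SPC24 at 6.93 RPKM, so the subunit that rose was the scarcest. Exons of other genes overlap 38.0% of the exon bases of CENPP (IPPK), 27.0% of CENPO (ADCY3) and 23.3% of PMF1 (PMF1-BGLAP). The values of CENPP, CENPO and PMF1 are therefore uncertain. Smaller overlaps were found in other genes, among them 17.7% of SGOL1 (SGO1-AS1), 12.8% of CENPN (CMC2) and 10.8% of CENPT (TSNAXIP1), all on the opposite strand. CENPN and CENPT are among the called genes, and the same limit applies to them. IPPK and ADCY3 lie on the opposite strand, and the sources used here do not give whether reads were counted by strand. PMF1-BGLAP lies on the same strand as PMF1, so counting by strand would not separate them. AURKA, BUB3, BUB1, CDC20, SKA2, SGOL1 and CENPI have annotated pseudogenes, and reads aligned to several places were counted on no gene.

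Base composition moved with the results over the whole transcriptome. Tested genes were divided into 5 bins of equal number by GC content: 45.1% were lower and 10.1% higher in the bin with the least GC, and 10.1% were lower and 35.5% higher in the bin with the most. Of the 41 genes, 12 were in the lowest bin, 12 in the next, and 6, 8 and 3 in the others. The 16 lower genes had a median GC content of 41.5% and the 5 higher genes 53.4%, with 48.1% for all tested genes. CDC20, at 57.9% GC, was lower although the median log2FC of all genes in its bin was 0.06. NSL1, at 38.0% GC, was higher although the median in its bin was -0.13. The offsets moved both away from 0, to -0.50 in CDC20 (adjusted p-value 5.91e-17) and 0.39 in NSL1 (adjusted p-value 1.91e-08). They brought BUB3 to -0.35, TTK to -0.31 and SPC24 to 0.32, all still past the test, and the median of the 41 genes to -0.06.

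**Figure D3:**
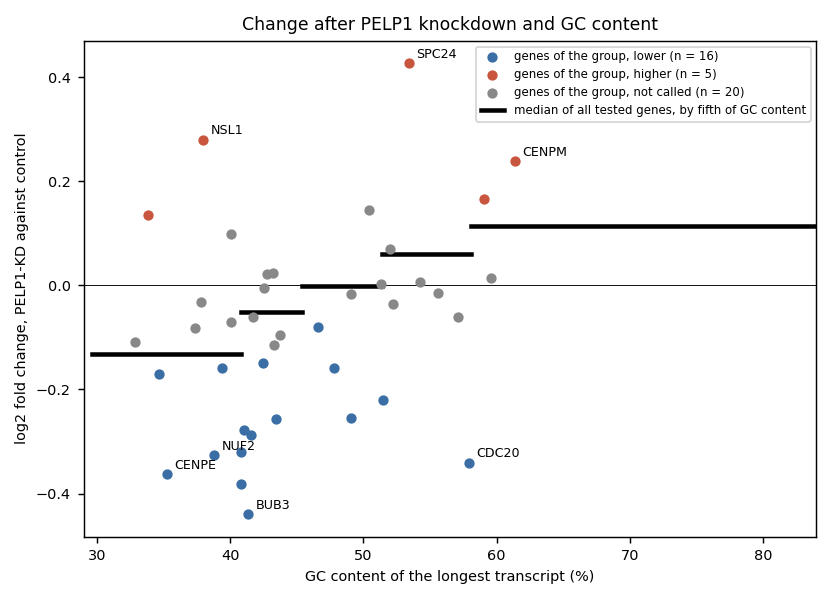
Each point is a gene of the centromere, kinetochore or checkpoint, with the GC content of its longest transcript on the horizontal axis and its log2FC in PELP1-KD against control cells on the vertical axis; black bars are the median log2FC of all tested genes in each of 5 bins of GC content. The bars climb from -0.13 to 0.11, BUB3 and CENPE lie below the bars of their bins, and CDC20, NSL1 and SPC24 lie far from theirs.

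Promoter windows of 250 bases before to 50 bases after the transcript start were found in RefSeq for 34 of the 41 genes; CENPH, CENPL, CENPM, BUB3, TTK, BIRC5 and AURKA had no entry. A CHR match on either strand was found in 20 of the 34 genes (58.8%), where 15.5% of the 10107 tested genes with a window had a match. Within the stretch of 75 bases before to 25 after the start, it was found in 15 of 34 genes (44.1%) and in 4.75% of the tested genes. The CCAAT box was found in 22 of 34 genes (64.7%), against 43.5%. The E2F motif (TTTCCCGC, TTTCGCGC, TTTGCCGC or TTTGGCGC) was found in CENPA alone, 2.94% of the 34 genes, against 6.69% of the tested genes and 13 of 22 S-phase genes.

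Of the genes with a window, a CHR match was present in 10 of the 13 lower genes, in 10 of the 17 that did not pass and in none of the 4 higher genes, SPC24, NSL1, CENPT and CENPQ. The median log2FC was -0.12 in the 20 genes with a match and 0.0037 in the 14 without. For the shorter stretch around the start the contrast was smaller: 7 of 15 genes with a match and 6 of 19 without were lower, with medians of -0.07 and -0.03. CENPE, CENPI and SGOL2 fell without a match, and genes with a match close to the start did not pass, among them NDC80, SPC25, BUB1B, INCENP, PLK1, SGOL1, SPAG5 and ZWINT. Among all tested genes, 29.3% of the 1567 with a match and 24.5% of the 8540 without were lower. A match describes the letters of the window and not binding by any factor.

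**Figure D4:**
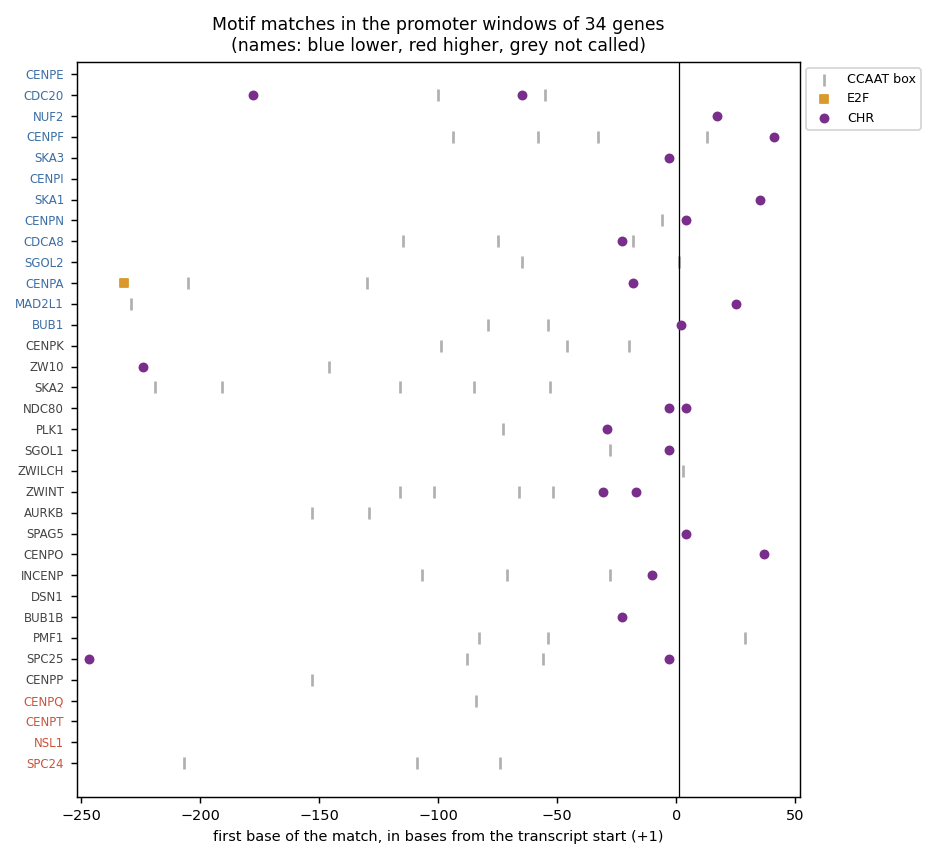
Positions of matches to the CHR (purple), the CCAAT box (grey ticks) and the E2F motif (orange) are plotted by distance in bases from the transcript start for 34 genes, ordered from lower (blue names) over not called (grey) to higher (red). CHR matches gather around the start in the blue and grey names, and the 4 red names have none.

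Of 20 further centromere, kinetochore and checkpoint genes, 6 were lower and 6 higher (30% each, where 24.2% and 22.7% of all tested genes were). With library totals 4 were lower and 6 higher, where 18.9% and 29.8% of all tested genes were. With GC and length offsets 7 were lower and 2 higher, where 28.9% and 22.8% of all tested genes were. CENPX, listed as STRA13, was matched by that symbol to the length and GC content of a different gene, on chromosome 3. Its value with the offsets is therefore unreliable, and so is its part in these counts. OIP5, a subunit of the complex that licenses CENPA deposition, was 28.4, 29.1 and 30.0 CPM in control and 15.7, 16.0 and 17.1 CPM in PELP1-KD cells. Its log2FC of -0.84 (SE 0.068, adjusted p-value 3.08e-09) lay beyond those of all 41 genes above. BOD1, a kinetochore regulator of a phosphatase, fell by a log2FC of -0.50 (adjusted p-value 5.15e-08), and CENPW of the CCAN and TRIP13, an ATPase that takes checkpoint complexes apart, were higher, CENPW by 0.26 (adjusted p-value 0.00113) and TRIP13 by 0.15 (adjusted p-value 0.00148).

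Of 24 genes of the APC/C and anaphase control, 9 were lower (37.5%) and 2 higher (8.33%), where 24.2% and 22.7% of all tested genes were. The median log2FC of the 24 genes was -0.06. With library totals 8 were lower and 5 higher, where 18.9% and 29.8% of all tested genes were, and the median was -0.0069. ANAPC13, a small APC/C subunit, was 75.7, 72.3 and 69.4 CPM in control and 45.9, 41.5 and 42.0 CPM in PELP1-KD cells (log2FC -0.75, adjusted p-value 4.86e-10), and CCNB1, cyclin B1, fell by a log2FC of -0.20 (adjusted p-value 1.04e-05). UBE2S, which extends ubiquitin chains for the APC/C, was 49.2, 76.6 and 83.8 CPM in control and 98.0, 106.3 and 101 CPM in PELP1-KD cells (log2FC 0.54, adjusted p-value 3e-04), with control replicate 1 apart from the others. ANAPC11, the catalytic subunit, rose by a log2FC of 0.15 (adjusted p-value 0.016).

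Of 14 transcriptional regulators of G2 and mitosis genes, 5 were lower (35.7%) and 2 higher (14.3%), where 24.2% and 22.7% of all tested genes were. With library totals only 2 were lower and 2 higher, where 18.9% and 29.8% of all tested genes were. Without PELP1-KD replicate 3 the lower genes were 2, and without control replicate 3 they were 3. LIN9 and RBBP4, subunits of MuvB, were both lower, LIN9 with a log2FC of -0.38 (adjusted p-value 2.08e-04) and RBBP4 with -0.23 (adjusted p-value 2.95e-04). MYBL2, which joins MuvB at CHR promoters, was 189, 195 and 204 CPM in control and 268, 286 and 271 CPM in PELP1-KD cells. CDKN1A, the inhibitor p21 of cyclin-dependent kinases, was 65.0, 71.3 and 66.8 CPM in control and 106.3, 114 and 109 CPM in PELP1-KD cells. Both rose in every PELP1-KD replicate, with a log2FC of 0.49 (adjusted p-value 9.27e-10) in MYBL2 and 0.69 (adjusted p-value 1.78e-10) in CDKN1A. FOXM1, named after its value was seen, fell by a log2FC of -0.11 (adjusted p-value 0.0108).

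Of 26 S-phase genes, 4 were lower (15.4%) and 5 higher (19.2%), where 24.2% and 22.7% of all tested genes were. The median log2FC of the 26 genes was 0.0017. POLA1 and TYMS fell by a log2FC of -0.34 and -0.14, and RRM2 and RFC2 rose by 0.14 and 0.17. These counts turned with the processing, and the shares among all tested genes moved as well. With library totals 4 were lower and 11 higher, where 18.9% and 29.8% of all tested genes were. With GC and length offsets 10 were lower and 5 higher, where 28.9% and 22.8% of all tested genes were. The higher genes were 2 under DESeq2 and without PELP1-KD replicate 2 or 3, and 3 without control replicate 2 or PELP1-KD replicate 1. No test was made of the difference between these lists and the 41 genes.

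**Figure D5:**
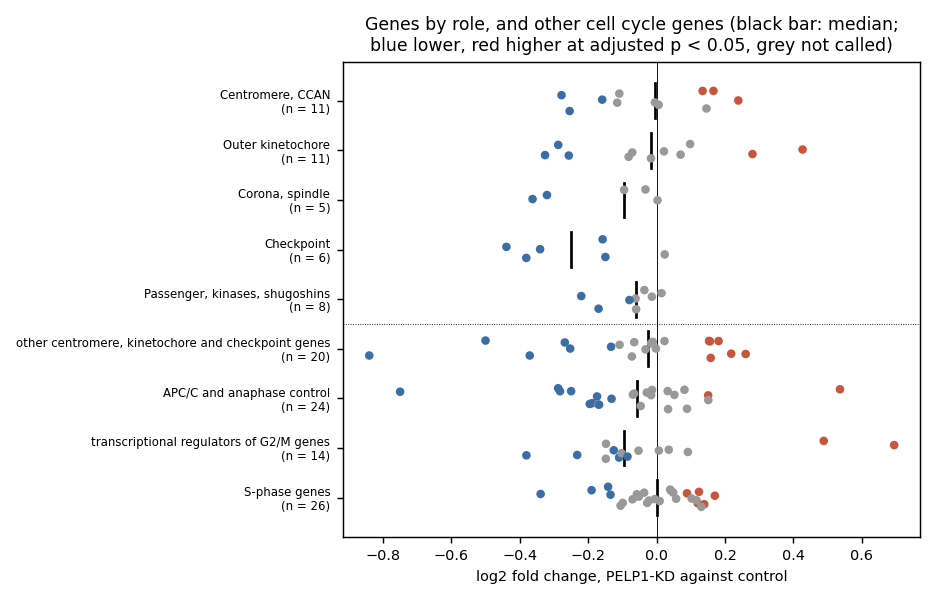
Each point is the log2FC of a gene in PELP1-KD against control cells, for the 5 roles above the dotted line and 4 lists of related cell cycle genes under it, with a black bar at the median. The checkpoint bar stands at -0.25, the others lie between -0.10 and 0.0017, and OIP5 at -0.84 and CDKN1A at 0.69 are the points farthest to the left and to the right.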

How the data were processed

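Expression was measured by RNA-seq in 3 control and 3 PELP1-KD replicates of MDA-MB-231, with TruSeq stranded mRNA libraries. The authors deposited read counts per gene symbol for each replicate, without normalization. The submitters' processing notes name bcl2fastq, TopHat2, SAMtools, HTSeq and hg19. Versions, annotation and strand setting are not given in the sources used here. Reads with several alignments were counted on no gene. Their closing total was between 32.5% and 32.9% of the sum of gene counts and closing totals in a library. All closing totals were left out. A floor of 3 counts is between 0.13 and 0.173 CPM and covers counting error only.

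Genes past filterByExpr (minimum count 10) were tested in R 4.3.3 with edgeR 4.0.16 (TMM, quasi-likelihood test, Benjamini-Hochberg adjustment over 12796 genes). The standard error is the log2FC over the square root of F. Replicates of a group differed by more than sampling noise (chi-square over its degrees of freedom, 1.47 to 4.11). Deviations of same-numbered replicates correlated at 0.0388, 0.0653 and -0.0784, so the numbers were not taken as pairs. Exon lengths and GC content came from GENCODE release 29 (GRCh38), matched for all but 1667 of 23228 symbols. The build differs from hg19, so lengths are approximate. The scripts were tested on simulated data. Alternatives were RLE, library totals, DESeq2 1.42.0, voom in limma 3.58.1, other filters, a replicate block, GC and length offsets, the block with these offsets, and leaving out each replicate.

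The genes and lists were chosen with earlier results of these data known. Shown in every library are PELP1, in each role the 2 genes with the lowest p-value and the largest change, each gene that rose, and, by level, the highest 3. Of the other lists, the 2 genes with the lowest p-values in each direction are named. MAD1L1, MAD2L1BP, SPDL1 and KNTC1 are named as further checkpoint genes, with their values known.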

Additional observations from a re-analysis of the deposited data

How the results depend on the processing

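The median log2FC of the 41 genes was -0.07 and moved to -0.022 with library totals, which put that of all tested genes at 0.051. Leaving out 1 replicate gave medians from -0.083 (without control replicate 2) to -0.045 (without PELP1-KD replicate 2). The number of higher genes was 5, and 3 under DESeq2. Leaving out 1 replicate gave 12 to 17 lower and 3 to 5 higher genes, and 3 were higher without control replicate 2 or PELP1-KD replicate 3. Calls lost in these ways were those of CENPA, MAD2L1 and SGOL2 (without PELP1-KD replicate 2), AURKA (without each replicate but control replicate 1), CENPT (without control replicate 2 and PELP1-KD replicates 2 and 3) and CENPQ (without control replicates 2 and 3 and PELP1-KD replicates 1 and 3).

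Among genes called with TMM or with the offsets, signs turned with GC and length offsets alone and with the replicate block added: CENPK to 0.11 and 0.11 (adjusted p-value 0.0119 and 0.0106), ZWILCH to 0.086 and 0.087 (0.0167 and 0.0185), INCENP to -0.10 and -0.10 (0.042 and 0.049) and SGOL2 to 0.014 and 0.013 (0.719 and 0.747). SKA2, CENPO, PMF1 and SPAG5, called in neither, also changed sign with the offsets alone, to 0.012, -0.064, -0.034 and -0.042. The replicate block alone, in which same-numbered replicates are compared, gave different counts: 19 genes were lower and 5 higher, the log2FC of PELP1 was -0.97, and no call was lost, with CENPK, SKA2 and ZW10 gained. RLE size factors, voom and both other filters on low counts kept the 21 calls. The length of the longest transcript in place of merged exons kept CDC20 and AURKA as the highest and placed AURKB before ZWINT. With 3 replicates a group and a biological coefficient of variation of 3.52%, AURKA was the only one of the 41 genes called at a log2FC within 0.1 of 0 in the main comparison (edgeR with TMM, without block or offsets). With the offsets or the block further genes were called within this range, among them BUB1 at -0.088 with the offsets and SKA2 at -0.082 with the block.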
